A study of Mus musculus with 24 samples.

Results

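The 10 genes described here are 5 keratins (Krt7, Krt8, Krt18, Krt19 and Krt23), the epithelial adhesion molecule Epcam, the transcription factor Sox9, the surface glycoprotein Cd24a, the secreted trefoil peptide Tff3 and the fetal serum protein Afp. They were chosen by gene symbol, as genes used to mark bile duct epithelium, liver progenitor cells and the keratin network, and all 10 were found among the 54532 genes of the count table. The livers came from male C57BL/6J mice aged 8 to 10 weeks, fasted for 24 h, and each of 6 groups held 4 livers with 1 RNA-seq library each. In Rab30L-/- livers the small GTPase Rab30, and in Cpt2L-/- livers the mitochondrial carnitine palmitoyltransferase Cpt2, had been removed by an albumin-Cre transgene acting on floxed alleles, and in DKO livers both had been removed in this way. The ff;ff controls carried both floxed genes without Cre and were labelled as littermates of the DKO mice. They also serve here as controls for Rab30L-/- and Cpt2L-/- livers, whose litters are not labelled. Rab30KO mice lacked Rab30 in the whole body, through deletion of exon 4, and their controls (Rab30 Ctrl) were wild-type littermates.

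In healthy liver, keratin 8 and keratin 18 pair to form the intermediate filaments of hepatocytes, whereas the cells lining the bile ducts add keratin 7 and keratin 19. Bile duct cells also carry Epcam and Sox9, and hepatocytes or progenitor cells that take on a ductal character after injury are known to gain these markers. Afp, made in large amounts by the fetal liver, is silenced after birth and can return in regenerating or malignant liver. Albumin-Cre acts in cells of the hepatocyte lineage, and whole liver RNA mixes hepatocytes with all other cells, so that fewer cells of a type and less RNA per cell cannot be told apart in these data.

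Library totals ranged from 11801027 to 24497738 counts. The summed level of 5 hepatocyte markers found in the table (Alb, Apoa1, Ttr, Cps1 and Hnf4a) lay between 42610 and 118200 CPM (counts scaled to a common library size) in the 24 libraries, and 4 bile duct markers that are not among the 10 genes (Spp1, Cftr, Cldn7 and Sctr) summed to between 5.67 and 38.2 CPM. The whole-gene counts of the targeted genes include the exons outside the deletion and do not check it: Rab30 lay at 5.39 to 17.4 CPM in Rab30KO and at 6.64 to 30.1 CPM in Rab30 Ctrl, and at 10.4 to 26.6 CPM in Rab30L-/- and 101 to 232 CPM in DKO against 25.9 to 44.6 CPM in ff;ff. In Cpt2L-/- livers, where Rab30 was not targeted, Rab30 lay at 121.7 to 188.5 CPM, within the range of DKO. Cpt2 lay at 95.3 to 167 CPM in Cpt2L-/- and at 96.1 to 120 CPM in DKO against 128 to 139 CPM in ff;ff. Groups are therefore named by their labels.

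The hepatocyte keratins dominated the set and rose in Cpt2L-/- livers, while the bile duct keratins had low counts in every group. Krt8 rose 1.85-fold and Krt18 rose 2.3-fold in Cpt2L-/- against ff;ff livers. Sox9 and Tff3 fell in the same livers, with log2 fold changes of -2.26 and -5.38. Afp fell in DKO against Rab30L-/- livers. No member passed the test where Rab30 alone had been removed, in the liver or in the whole body.

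Levels of different genes were compared per length, as FPKM averaged over the 24 libraries. Krt8, at 119.9 FPKM, and Krt18, at 116.8 FPKM, ranked 379 and 386 among the 29293 genes with a value above 0. Tff3 followed with a mean of 23.2 FPKM, although its libraries ran from 0 to 168 FPKM, and Krt23 had a mean of 7.2 FPKM. This order turned in the groups without Cpt2, where Tff3 averaged 1.08 FPKM in Cpt2L-/- and 2.86 FPKM in DKO, below Krt23 at 10.7 and 9.72 FPKM. Sox9 (0.875 FPKM), Cd24a (0.781), Epcam (0.571), Afp (0.403) and Krt19 (0.389) were neighbours in this order whose ranges over the libraries overlapped. Of these neighbours, Sox9 was the highest in ff;ff livers (1.16 FPKM) and the lowest in Cpt2L-/- livers (0.240 FPKM). Over the 24 libraries Krt7 was lowest, at 0.0788 FPKM. Its listed length of 7049 bases joins all annotated transcripts, and on the 4094 bases of its principal transcript the mean would be 0.136 FPKM, still the lowest of the 10. Together Krt8 and Krt18 supplied between 74.4% and 97.9% of all counts of the 10 genes in a library.

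**Figure D1:**
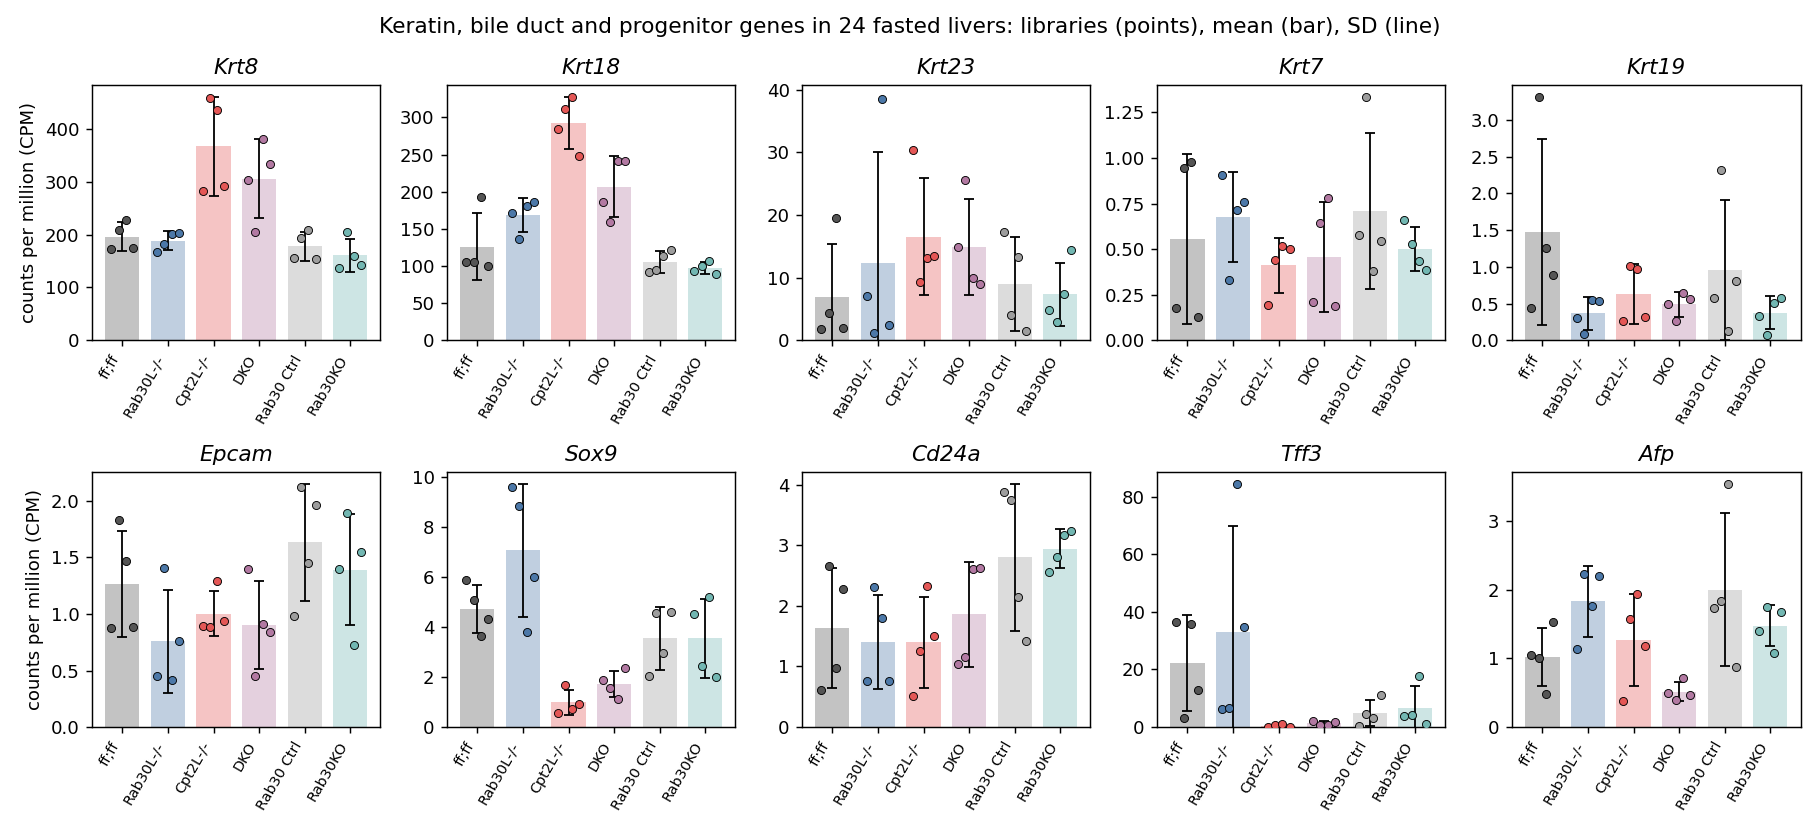
Level of each gene in CPM (vertical axes, linear, each panel with its own scale) in the 24 libraries (points) of the 6 groups (horizontal axes), with the mean as a bar and the SD as a line, which ends at 0 where it would go below. Krt8 and Krt18 stand highest in Cpt2L-/- livers, Sox9 and Tff3 lie lowest in Cpt2L-/- and DKO livers, and Krt23 and Tff3 have single libraries far above the others of their group.

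Krt8 and Krt18 lie next to each other on mouse chromosome 15 in GRCm38. Krt8 (ENSMUSG00000049382) occupies 101996698 to 102004482 on the minus strand and Krt18 (ENSMUSG00000023043) occupies 102028180 to 102032027 on the plus strand, and the starts of their RefSeq promoter entries are 23.9 kb apart. The 250 bases before each RefSeq start (GRCm38.p6) are shown because both genes rose in Cpt2L-/- livers, for Krt8 at chr15:102004343-102004592 on the minus strand and for Krt18 at chr15:102027966-102028215 on the plus strand, written 5′ to 3′ on the strand of the gene. Capitals would mark a match to any of 5 motifs searched on both strands: the TATA box TATAAA, the GC box GGGCGG, the CCAAT box CCAAT, the AP-1 motif TGANTCA and the C/EBP motif TTGCGCAA.
Krt8: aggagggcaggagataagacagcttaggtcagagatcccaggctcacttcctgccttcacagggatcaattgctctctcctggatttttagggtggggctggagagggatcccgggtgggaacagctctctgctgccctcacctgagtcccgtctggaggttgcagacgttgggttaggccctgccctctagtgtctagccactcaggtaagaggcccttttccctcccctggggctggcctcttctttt
Krt18: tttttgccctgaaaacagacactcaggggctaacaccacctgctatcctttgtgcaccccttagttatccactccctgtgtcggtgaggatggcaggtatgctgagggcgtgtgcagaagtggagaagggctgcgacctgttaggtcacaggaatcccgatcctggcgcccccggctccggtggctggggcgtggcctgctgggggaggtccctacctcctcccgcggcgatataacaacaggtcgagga
Part of each window lies inside the span of its gene given above. Neither window held any of the 5 motifs. Among 32851 promoters of the same length, 12.4% held the TATA box, 32.7% the GC box, 33.8% the CCAAT box, 6.75% the AP-1 motif and 0.164% the C/EBP motif.

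Krt8 encodes the type II keratin of hepatocyte filaments. It was counted at 282, 459, 435 and 291 CPM in the 4 Cpt2L-/- libraries and at 172, 209, 228 and 175 CPM in the 4 ff;ff libraries. Every Cpt2L-/- library lay above every ff;ff library. The DKO libraries held 302, 205, 381 and 334 CPM, of which replicate 2 lay inside the ff;ff range and the other three above it. In Rab30L-/- livers Krt8 stood at 166, 183, 202 and 203 CPM, overlapping with ff;ff.

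By edgeR's quasi-likelihood test, Krt8 was higher in Cpt2L-/- than in ff;ff with a log2 fold change of 0.89 (SE 0.19, adjusted p = 0.00396). It was also higher in DKO than in ff;ff (0.63, SE 0.19, adjusted p = 0.0440) and in DKO than in Rab30L-/- (0.70, SE 0.18, adjusted p = 0.0122), where the groups did not overlap. The call against ff;ff in DKO held in 2 of 8 repeats that each left out 1 library, being lost without DKO replicates 1, 3 or 4 or without ff;ff replicates 1, 2 or 4 (adjusted p up to 0.122). The difference between DKO and Cpt2L-/- did not pass the test (-0.25, SE 0.21, adjusted p = 0.523).

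Krt18 encodes the type I partner of keratin 8. The Cpt2L-/- libraries held 285, 311, 327 and 248 CPM, against 105, 106, 193 and 99.6 CPM in ff;ff, with no overlap. The ff;ff replicate 3 stood well above its group. DKO libraries held 186, 159, 242 and 241 CPM, all below the lowest Cpt2L-/- library and within or above the ff;ff range. Rab30L-/- libraries held 172, 136, 181 and 187 CPM.

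Krt18 was higher in Cpt2L-/- than in ff;ff by a log2 fold change of 1.2 (SE 0.21, adjusted p = 0.00114). In DKO against ff;ff its log2 fold change of 0.71 (SE 0.23) had an adjusted p of 0.0560 by edgeR, and it passed without ff;ff replicate 3 (0.99, adjusted p = 0.00287), without DKO replicate 2 (0.82, adjusted p = 0.0459) and in 3 of 4 alternative fits, among them DESeq2 (0.72, adjusted p = 0.0227). In DKO against Cpt2L-/- the log2 fold change was -0.49 (SE 0.15), and although every DKO library lay lower, the adjusted p was 0.105 over all genes tested. The fit without a filter on low counts gave 0.0482 for the same difference. The interaction, which is the difference of DKO to Cpt2L-/- minus the difference of Rab30L-/- to ff;ff, was -0.91 for Krt18 (SE 0.28, adjusted p = 0.0722) and -0.18 for Krt8 (SE 0.27, adjusted p = 0.726).

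The balance of the pair was close to even. The ratio of Krt8 to Krt18 in FPKM was 1.2 ± 0.246 (SD, n = 4) in ff;ff, 0.828 ± 0.117 in Rab30L-/-, 0.911 ± 0.153 in Cpt2L-/-, 1.08 ± 0.118 in DKO, 1.25 ± 0.242 in Rab30 Ctrl and 1.21 ± 0.199 in Rab30KO. The ff;ff ratios ran from 0.865 to 1.45 and overlapped those of the 3 liver knockouts, which ran from 0.71 to 0.989 in Rab30L-/-, from 0.727 to 1.08 in Cpt2L-/- and from 0.943 to 1.2 in DKO. A pseudogene of Krt8 took 132 counts and a noncoding gene overlapping Krt8, Gm36026, took 42 counts in all libraries together, against 87890 for Krt8.

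**Figure D2:**
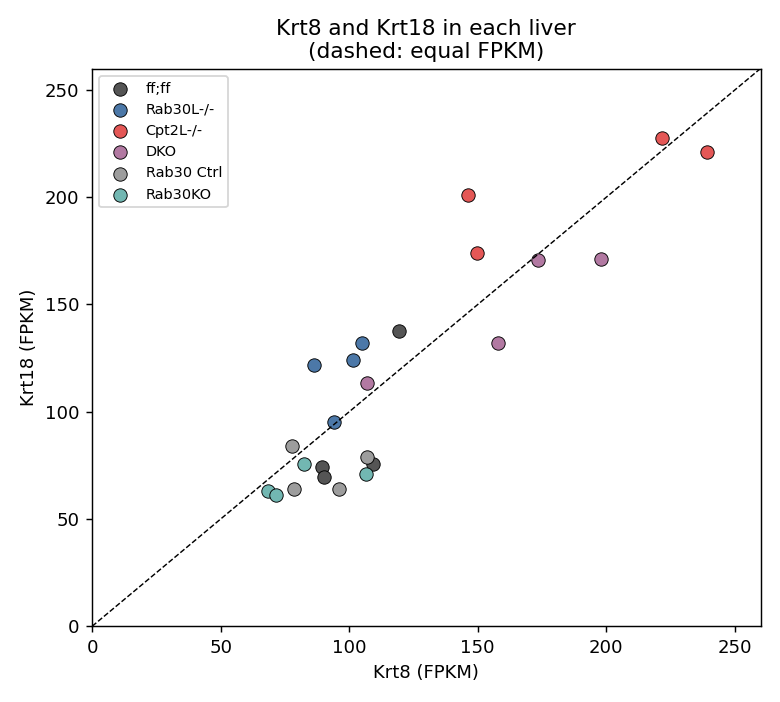
Krt18 (vertical axis) against Krt8 (horizontal axis) in FPKM, 1 point per library, with a dashed line where both are equal. The 4 Cpt2L-/- libraries lie above 146 FPKM for Krt8 and above 174 FPKM for Krt18, and ff;ff replicate 3 lies apart from the other ff;ff libraries, at 119 and 138 FPKM.

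Krt23, a small type I keratin known to be induced in injured hepatocytes, varied widely within groups. In ff;ff the libraries held 1.83, 4.32, 19.6 and 2.03 CPM, and in Cpt2L-/- they held 30.4, 9.32, 13.1 and 13.5 CPM. The DKO libraries lay at 14.9, 25.6, 10.02 and 9.01 CPM, and the Rab30L-/- libraries at 7.02, 1.16, 38.6 and 2.43 CPM. The highest library of all was Rab30L-/- replicate 3, and ff;ff replicate 3 was the only ff;ff library within the ranges of Cpt2L-/- and DKO.

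The differences in Krt23 did not pass the test in Cpt2L-/- against ff;ff (log2 fold change 1.24, SE 0.82, adjusted p = 0.336) or in DKO against ff;ff (1.08, SE 0.80, adjusted p = 0.429). Without ff;ff replicate 3 both passed, at 2.56 (adjusted p = 0.00392) and 2.41 (adjusted p = 0.00686). Leaving out any other single library did not bring either past the thresholds. In DKO against Rab30L-/- the log2 fold change of 0.25 (SE 1.02, adjusted p = 0.878) became 2.05 without Rab30L-/- replicate 3, with an adjusted p of 0.0516. Krt23 (ENSMUSG00000006777) lies at chr11:99477974-99493137.

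The bile duct keratins Krt7 and Krt19 and the adhesion molecule Epcam were close to the lower limit of what these libraries could measure. Krt7 (ENSMUSG00000023039, at chr15:101411043-101430313) had from 2 to 27 counts in a library, Krt19 (ENSMUSG00000020911, at chr11:100140810-100148665) from 1 to 56 and Epcam (ENSMUSG00000045394, at chr17:87635979-87651106) from 6 to 43. None was at 0 in any library. Krt7 passed the filter on low counts in 2 of the 6 comparisons between groups, Krt19 in 2 and Epcam in all 6. Krt19 in Cpt2L-/- and DKO against ff;ff, and Krt7 in DKO against ff;ff, passed only through the higher ff;ff group, since they were left out of every other comparison of the lower group, so no test from the filtered fit is given for them there.

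Krt19, the classical bile duct keratin, lay at 0.437, 3.31, 1.26 and 0.889 CPM in ff;ff, at 0.256, 1.01, 0.971 and 0.312 CPM in Cpt2L-/- and at 0.489, 0.258, 0.650 and 0.563 CPM in DKO. The mean of ff;ff was carried by replicate 2. The group means were 1.47 CPM in ff;ff, 0.637 CPM in Cpt2L-/- and 0.490 CPM in DKO, and the libraries of ff;ff overlapped with those of both groups. The fit without a filter on low counts gave log2 fold changes against ff;ff of -1.23 in Cpt2L-/- (adjusted p = 0.0979), -1.59 in DKO (adjusted p = 0.0338) and -1.98 in Rab30L-/- (adjusted p = 0.0746). In ff;ff replicate 2 the 5 mesothelial markers other than the keratins (Msln, Wt1, Upk3b, Upk1b and Lrrn4) summed to 2.78 CPM, between the 0.874 and 3.14 CPM of other ff;ff libraries.

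Epcam, at means of 1.27 CPM in ff;ff, 0.758 in Rab30L-/-, 1.002 in Cpt2L-/- and 0.901 in DKO, had overlapping groups in every comparison. Its log2 fold changes ran from -0.80 in Rab30L-/- against ff;ff (SE 0.48, adjusted p = 0.558) to 0.29 in DKO against Rab30L-/- (SE 0.50, adjusted p = 0.695). Krt7 averaged 0.556 CPM in ff;ff and 0.456 CPM in DKO, and its log2 fold change was 0.25 in Rab30L-/- against ff;ff (SE 0.62, adjusted p = 0.921). The SEs ran from 0.36 to 0.50 for Epcam and stood at 0.62 for Krt7 on the log2 scale, so that differences of that size were not detectable with these libraries. An antisense gene overlapping Krt7, Gm671, had 12 counts in all libraries together.

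Sox9, which marks bile duct cells and also hepatocytes next to the portal tracts, fell in both groups without Cpt2. It was counted at 5.85, 5.09, 3.63 and 4.32 CPM in ff;ff and at 0.577, 1.70, 0.712 and 0.937 CPM in Cpt2L-/-. The DKO libraries held 1.89, 1.55, 1.11 and 2.35 CPM, and the Rab30L-/- libraries 9.59, 8.83, 3.82 and 5.997 CPM. Every Cpt2L-/- and DKO library lay below every ff;ff and Rab30L-/- library.

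The log2 fold change of Sox9 was -2.26 in Cpt2L-/- against ff;ff (SE 0.35, adjusted p = 4.46e-04), -1.45 in DKO against ff;ff (SE 0.29, adjusted p = 0.00556) and -2.01 in DKO against Rab30L-/- (SE 0.34, adjusted p = 0.00129). All of these calls were kept in the 4 alternative fits and in each of the 8 repeats that left out 1 library. DKO livers had more Sox9 than Cpt2L-/- livers on average, by a log2 fold change of 0.82 that did not pass the test (SE 0.39, adjusted p = 0.243). In Rab30L-/- against ff;ff it was 0.57 (SE 0.30, adjusted p = 0.508). Sox9 (ENSMUSG00000000567) lies at chr11:112782224-112787760 on the plus strand, and its counts ran from 9 to 127 in a library.

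Of the bile duct markers Spp1, Cftr, Cldn7 and Sctr, only the secreted phosphoprotein Spp1 was high enough to test, and it passed in none of the comparisons. These 4 genes summed to between 8.5 and 24.9 CPM in ff;ff and to between 5.67 and 21.1 CPM in Cpt2L-/- libraries. Among hepatocyte, Kupffer cell and red cell markers 2 of 5, 3 of 6 and 4 of 5 tested fell in Cpt2L-/- against ff;ff, beside 11.9% of all genes, and the hepatocyte markers summed to 42610 to 51160 CPM in Cpt2L-/- against 87550 to 115900 CPM in ff;ff. Most of the hepatocyte sum was Alb, with means of 31610 CPM in Cpt2L-/- and 83070 CPM in ff;ff, and the 2 hepatocyte markers that fell were Alb and Ttr. The Kupffer cell markers summed to 135 to 187 CPM against 161 to 291 CPM, and the red cell markers to 87.1 to 165 CPM against 210 to 631 CPM. In DKO against Rab30L-/-, where Sox9, Tff3 and Afp fell, 5 of 6 Kupffer cell markers fell (median log2 fold change -1.24), beside 15.8% of all genes, and they summed to 132 to 155 CPM in DKO against 209.9 to 583 CPM in Rab30L-/-. In DKO against ff;ff 3 of 6 fell (median -0.53), beside 8.24% of all genes. Of the hepatocyte markers 2 of 5 fell in either DKO comparison. Of the red cell markers 0 of 5 passed in DKO against ff;ff, and in DKO against Rab30L-/- Alas2 fell (-0.71, SE 0.24, adjusted p = 0.0468) and Hba-a2 rose (3.29, SE 0.88, adjusted p = 0.0205), while they summed to 124 to 408 CPM in DKO and 266 to 638 CPM in Rab30L-/-. The part of these cells in the falls of Sox9, Tff3 and Afp was not tested.

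Tff3, a small secreted peptide best known from mucus-producing epithelium and also made by hepatocytes, had the largest log2 fold changes of the members in the 3 comparisons that set livers without Cpt2 against livers with it. In ff;ff it was counted at 36.3, 3.25, 35.8 and 13.0 CPM, from 55 to 514 counts in a library. In Cpt2L-/- it was counted at 0, 0.692, 1.23 and 0.187 CPM, from 0 counts in replicate 1 to 19 counts in replicate 3. The DKO libraries held 2.23, 0.710, 0.715 and 1.88 CPM. No library of either group without Cpt2 reached the lowest ff;ff library, although ff;ff itself spread more than 10-fold. Rab30L-/- libraries held 6.19, 6.76, 84.2 and 34.8 CPM, and replicate 3 held the highest level of the series.

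The log2 fold change of Tff3 was -5.38 in Cpt2L-/- against ff;ff (SE 1.06, adjusted p = 0.00965), -3.98 in DKO against ff;ff (SE 0.82, adjusted p = 0.0151) and -4.55 in DKO against Rab30L-/- (SE 1.08, adjusted p = 0.0201). The first call was kept in every alternative and repeat, with log2 fold changes from -6.19, without Cpt2L-/- replicate 3, to -4.98. The call in DKO against ff;ff was lost without DKO replicate 3 (adjusted p = 0.0561), and that against Rab30L-/- was lost without DKO replicates 1, 2 or 3 (adjusted p up to 0.0617). The difference from Rab30L-/- ran from -4.89 to -3.52 with 1 library left out, and the smallest value was the one without Rab30L-/- replicate 3. Tff3 did not differ past the thresholds in Rab30L-/- against ff;ff (0.58, SE 1.07, adjusted p = 0.892). Tff3 (ENSMUSG00000024029) lies at chr17:31125306-31129646 on the minus strand.

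Rab30 Ctrl livers, at 0.348, 4.59, 3.10 and 11.1 CPM, and Rab30KO livers, at 3.95, 4.10, 17.6 and 1.03 CPM, overlapped with each other and with the groups without Cpt2 in single libraries. The other trefoil and mucin genes on a list of 16 were too low to test in most cases, and none passed in Cpt2L-/- or DKO against ff;ff. The 5 pancreatic acinar genes examined summed to 0 CPM in all DKO libraries and to at most 0.0625 CPM in Cpt2L-/-, against 0.254 to 0.837 CPM in ff;ff and 0.336 to 2.20 CPM in Rab30L-/-. The 4 intestinal markers examined (Vil1, Cdx2, Lgals4 and Fabp2) summed to 232 to 390 CPM in Cpt2L-/- and 233 to 296 CPM in DKO against 89.7 to 139 CPM in ff;ff. Most of this sum was Fabp2, an intestinal fatty acid-binding protein, with means of 232 CPM in Cpt2L-/- and 74.1 CPM in ff;ff. It was the only one of the 2 tested to pass in Cpt2L-/- against ff;ff (1.63, SE 0.27, adjusted p = 0.00104), and Cdx2 had 0 counts in all Cpt2L-/- and DKO libraries. The part of either tissue in the fall of Tff3 was not tested.

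**Figure D3:**
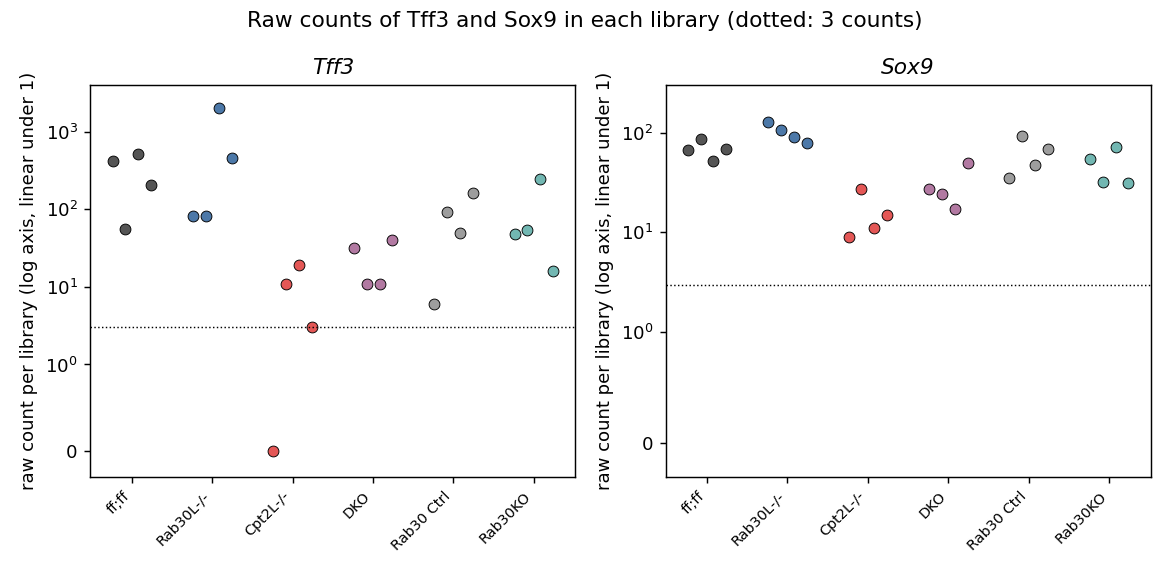
Raw counts of Tff3 and Sox9 (vertical axes, logarithmic above 1 and linear below) in the 4 libraries of each group (points), with a dotted line at 3 counts. Tff3 has 0 counts in 1 Cpt2L-/- library and 2009 in Rab30L-/- replicate 3, and Sox9 stays at or below 50 counts in the 8 livers without Cpt2.

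Cd24a, a surface glycoprotein of progenitor and immune cells, did not pass the test in any comparison. Its mean was 1.63 CPM in ff;ff, 1.41 in Rab30L-/-, 1.40 in Cpt2L-/- and 1.86 in DKO, with overlapping libraries. Its log2 fold changes among these groups ran from -0.27 in Cpt2L-/- against ff;ff (SE 0.50, adjusted p = 0.744) to 0.43 in DKO against Cpt2L-/- (SE 0.44, adjusted p = 0.609). Cd24a (ENSMUSG00000047139) lies at chr10:43578284-43584265.

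Afp, the fetal counterpart of albumin, was low in all livers, with 6 to 56 counts in a library. The Rab30L-/- libraries held 1.13, 2.23, 1.76 and 2.20 CPM, the DKO libraries 0.489, 0.387, 0.715 and 0.469 CPM. Every DKO library lay below every Rab30L-/- library. In ff;ff Afp lay at 1.05, 1.005, 0.488 and 1.52 CPM and in Cpt2L-/- at 0.384, 1.57, 1.94 and 1.19 CPM, so that each of these groups spanned much of the range.

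Afp fell in DKO against Rab30L-/- by 1.81 on the log2 scale (SE 0.37, adjusted p = 0.00402), and this call was kept in the 4 alternative fits and in all 8 repeats. In DKO against Cpt2L-/- its log2 fold change was -1.28 (SE 0.47, adjusted p = 0.147), in DKO against ff;ff -0.98 (SE 0.43, adjusted p = 0.152), in Rab30L-/- against ff;ff 0.83 (SE 0.39, adjusted p = 0.463) and in Cpt2L-/- against ff;ff 0.30 (SE 0.47, adjusted p = 0.690). The interaction of Afp, defined as for Krt18, was -2.11 (SE 0.62), with an adjusted p of 0.0622 by edgeR and of 0.0297 by DESeq2. An antisense gene overlapping Afp, Gm43449, had 83 counts in all libraries together, against 504 for Afp, and counting is not stated to use strand.

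The 250 bases before the RefSeq start of Afp (ENSMUSG00000054932), at chr5:90490464-90490713 on the plus strand of GRCm38.p6, are shown because Afp passed the test in DKO against Rab30L-/-. Capitals mark the motifs found, a TATA box from -7 to -2 and a CCAAT box in reverse (ATTGG) from -98 to -94, counted from the RefSeq start. The gene model of Afp used for counting starts further downstream, at 90490737.
Afp: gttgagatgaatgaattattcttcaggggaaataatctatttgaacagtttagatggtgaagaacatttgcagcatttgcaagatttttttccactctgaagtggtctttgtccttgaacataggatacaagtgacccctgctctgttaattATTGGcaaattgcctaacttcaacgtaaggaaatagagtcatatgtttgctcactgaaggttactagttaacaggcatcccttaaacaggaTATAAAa
Among 16 neighbours and regulators of Afp, all tested, 7 fell and 1 rose in Cpt2L-/- against ff;ff, beside 11.9% of all genes in each direction, with a median log2 fold change of -0.47 beside -0.003 over all genes. The gene that rose, Trp53, also stands on the list of keratin stress genes below (0.69, SE 0.15, adjusted p = 0.00480). The falls included the serum proteins of the same gene cluster, Alb (-1.41, SE 0.19, adjusted p = 1.60e-04), Afm (-1.06, SE 0.17, adjusted p = 6.75e-04) and Gc (-0.98, SE 0.17, adjusted p = 0.00104), and the nuclear factor Nfia (-0.72, SE 0.19, adjusted p = 0.0133). In DKO against Rab30L-/- 6 fell and none rose (median -0.44), beside 15.8% of all genes lower and 14.9% higher, among them the liver transcription factors Foxa2 (-1.39, SE 0.25, adjusted p = 0.00264), Cebpa (-1.2, SE 0.20, adjusted p = 0.00137) and Foxa3 (-0.94, SE 0.19, adjusted p = 0.00439). In DKO against ff;ff 7 fell and 1 rose (median -0.58), beside 8.24% of all genes lower and 7.87% higher. Afp itself passed in neither comparison with ff;ff. Alb did not pass in DKO against Rab30L-/-, where Afm (-0.61, SE 0.18, adjusted p = 0.0240) and Gc (-0.73, SE 0.19, adjusted p = 0.0145) fell, and the interaction of Alb was 1.04 (SE 0.24, adjusted p = 0.0215), opposite in sign to that of Afp, while that of Foxa2 was -1.1 (SE 0.30, adjusted p = 0.0440), of the same sign. These were the 2 of the 16 genes that passed for the interaction, beside 4.06% of all genes.

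Counted over the set, without Krt19 and Krt7 where they passed the filter only through ff;ff, 4 of 8 members passed in Cpt2L-/- against ff;ff, where 23.8% of all 13270 genes did. The 2 that rose (Krt8 and Krt18) stand beside 11.9% of all genes, and the 2 that fell (Sox9 and Tff3) beside 11.9%. The libraries of the groups did not overlap for these 4 members, as for 26.7% of all genes. In DKO against ff;ff 3 of 8 members passed, 1 higher (Krt8) and 2 lower (Sox9 and Tff3), beside 16.1% of all genes, 7.87% higher and 8.24% lower. For Sox9 and Tff3, 2 members, the libraries lay in groups without overlap there, beside 20.5% of all genes. In DKO against Rab30L-/- 4 of 8 passed, 1 higher (Krt8) and 3 lower (Sox9, Tff3 and Afp), beside 30.7% of all genes, 14.9% higher and 15.8% lower, and these 4 had groups without overlap, beside 31.5% of all genes. The median log2 fold change of these 8 members was 0.02 in Cpt2L-/- against ff;ff, -0.18 in DKO against ff;ff and 0.27 in DKO against Rab30L-/-, with medians over all genes of -0.003, -0.018 and -0.012. The first 2 comparisons share the ff;ff libraries and the last 2 share the DKO libraries.

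Where Rab30 was the gene removed, none of the members passed. In Rab30L-/- against ff;ff 0 of 9 members passed by edgeR, 0 by DESeq2 and 0 had an unadjusted p under 0.05, beside 0.479% of all genes called. In Rab30KO against Rab30 Ctrl 0 of 8 passed by edgeR and by DESeq2 and 0 had an unadjusted p under 0.05, beside 0.022% of all genes called. The largest absolute log2 fold changes there were 0.48 for Tff3 (SE 1.04) and -0.43 for Afp (SE 0.42). In DKO against Cpt2L-/- 0 of 8 passed by edgeR and by DESeq2, and 2, Krt18 and Afp, had an unadjusted p under 0.05, beside 2.71% of all genes called. For the interaction 0 of 10 passed by edgeR, 2 by DESeq2 (Krt18 and Afp), and these 2 had an unadjusted p under 0.05, beside 4.06% of all genes called.

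**Figure D4:**
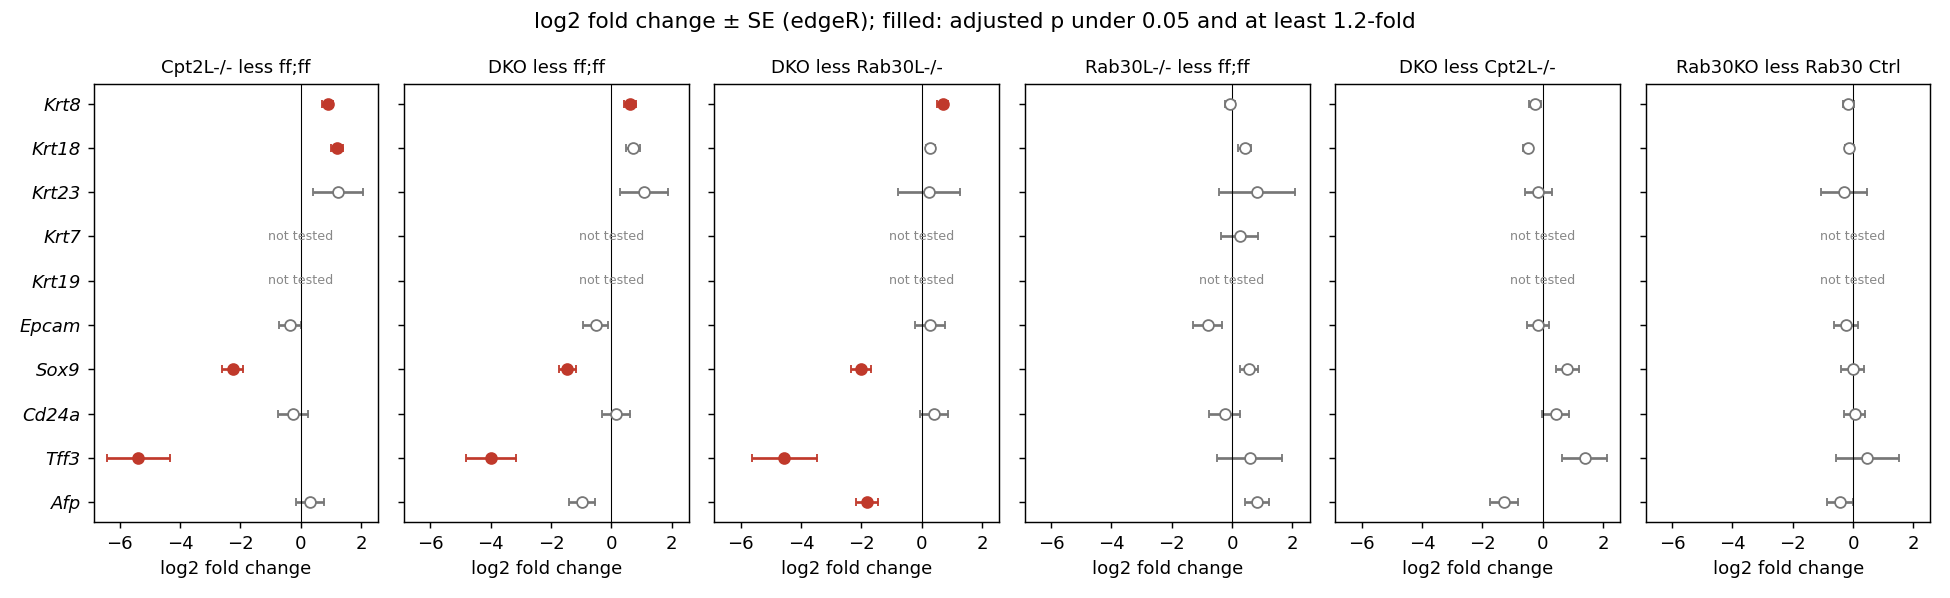
Log2 fold change with its SE (horizontal axes) of each gene in the 6 comparisons between groups (panels), with filled red points for genes past the thresholds and no point where the filtered fit gives no test. Krt8 is higher and Sox9 and Tff3 are lower in the 3 panels that compare livers without Cpt2 with livers that have it, and the panels for Rab30 have open points only.

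Beyond the members, the filament system was followed through lists of genes, whose counts leave out genes that passed the filter on low counts only through the group where they are high. Of 13 genes tied to keratin aggregates (Mallory-Denk bodies) and keratin stress, 6 rose and 0 fell in Cpt2L-/- against ff;ff, beside 11.9% of all genes in each direction, with a median log2 fold change of 0.49 beside -0.003 over all genes. They included Tgm2, which cross-links keratins (1.60, SE 0.22, adjusted p = 1.92e-04), the small heat shock protein Hspb1 (1.39, SE 0.22, adjusted p = 5.65e-04), the quinone reductase Nqo1 (1.31, SE 0.27, adjusted p = 0.00330) and Sqstm1, the p62 protein of these bodies (1.19, SE 0.20, adjusted p = 7.97e-04). In DKO against ff;ff 5 of 13 rose (median 0.46), beside 7.87% of all genes, with Hspb1 at 1.65 (SE 0.27). In DKO against Rab30L-/- 7 of 13 rose (median 0.63), beside 14.9% of all genes, with Hspb1 at 2.78 (SE 0.40). Nqo1 fell in DKO against Cpt2L-/- (-0.72, SE 0.15, adjusted p = 0.0327).

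Of 16 genes for keratin linkers and desmosomes, 2 of 14 tested rose and 1 fell in Cpt2L-/- against ff;ff (median 0.24), beside 11.9% of all genes in each direction. In DKO 2 of 13 rose and 0 fell against ff;ff (median -0.19), beside 7.87% and 8.24% of all genes, and 3 of 13 rose and 2 fell against Rab30L-/- (median 0.00), beside 14.9% and 15.8%. Dsp, the desmoplakin that anchors keratin filaments to desmosomes, rose with a log2 fold change of 1.96 in Cpt2L-/- (SE 0.21, adjusted p = 2.98e-05) and 1.92 in DKO (SE 0.21, adjusted p = 1.58e-04) against ff;ff, and of 1.75 in DKO against Rab30L-/- (SE 0.13, adjusted p = 1.56e-05). The plakophilin Pkp2 rose by 0.68, 0.58 and 0.84 in the same 3 comparisons (SE 0.13, 0.15 and 0.14). The plakophilin Pkp4 also rose in DKO against Rab30L-/- (0.49, SE 0.13, adjusted p = 0.0151), and Jup, the plakoglobin of desmosomes, fell (-0.42, SE 0.12, adjusted p = 0.0248). Krtcap2, which despite its name belongs to the oligosaccharyltransferase complex, fell in Cpt2L-/- against ff;ff (-0.57, SE 0.18, adjusted p = 0.0322) and in DKO against Rab30L-/- (-0.47, SE 0.12, adjusted p = 0.0132). The plakophilin Pkp1, left out of the counts, averaged 1.38 CPM in Cpt2L-/- and 0.436 CPM in ff;ff livers.

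The other keratins were nearly silent. Of 49 further Krt genes in the table, 33 had 0 counts in all 24 libraries and 1, Krt10, averaged over 1 CPM, at 1.47 CPM. Krt79, a keratin of skin appendages, had 0 counts in all 4 ff;ff libraries and 10, 11, 17 and 19 counts in the Cpt2L-/- libraries. Against a floor of 3 counts over the ff;ff group it was at least 17.6-fold higher on the TMM scale in Cpt2L-/-. This gene was singled out after its values were seen and entered the fit through the group where it is high, so no test is given. The DKO libraries had 13, 10, 3 and 8 counts of Krt79, and the Rab30L-/- libraries 2, 0, 0 and 0.

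The Notch and Yap pathways, which are known to drive ductal fate and Sox9 in liver cells, showed 3 of 22 tested genes higher and 0 lower in Cpt2L-/- against ff;ff (median 0.02), a share higher that is close to the 11.9% of all genes. These were the adaptor Ajuba (2.62, SE 0.32, adjusted p = 1.32e-04), the Yap target Cyr61 (2.01, SE 0.27, adjusted p = 1.63e-04) and Wwtr1, the Yap paralogue Taz (1, SE 0.21, adjusted p = 0.00366). In DKO against ff;ff Ajuba alone of 22 passed (1.51, SE 0.44, adjusted p = 0.0414), beside 7.87% of all genes higher. Cyr61 was lower in DKO than in Cpt2L-/- (-1.45, SE 0.25, adjusted p = 0.0184). In DKO against Rab30L-/- 6 rose and 2 fell of 22 tested (median 0.20), beside 14.9% of all genes higher and 15.8% lower, led by the Yap target Ctgf (1.84, SE 0.24, adjusted p = 3.69e-04).

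Of 30 further bile duct and progenitor genes, 15 were tested in Cpt2L-/- against ff;ff, where 2 rose and 3 fell (median -0.32), close to the 11.9% of all genes that passed in each direction. Annexin Anxa5 (3.16, SE 0.42, adjusted p = 6.50e-04) and the TWEAK receptor Tnfrsf12a (2.77, SE 0.31, adjusted p = 7.89e-05) rose. The secreted proteins Cp (-1.01, SE 0.17, adjusted p = 0.00104) and Clu (-0.76, SE 0.17, adjusted p = 0.00478), which hepatocytes also make, fell. Of 16 tested, 1 rose and 2 fell in DKO against ff;ff (median -0.25), beside 7.87% and 8.24% of all genes, and 2 rose and 2 fell in DKO against Rab30L-/- (median -0.35), beside 14.9% and 15.8%. Tnfrsf12a also rose in DKO against ff;ff (2.34, SE 0.45, adjusted p = 0.00779) and against Rab30L-/- (2.74, SE 0.39, adjusted p = 0.00118). Of 17 fetal and oncofetal genes, 1 of 9 tested rose and 1 fell in Cpt2L-/- against ff;ff (median -0.11), beside 11.9% of all genes in each direction: Peg3, an imprinted zinc finger gene (1.15, SE 0.27, adjusted p = 0.00846), and Ahsg, the serum protein fetuin A (-0.96, SE 0.19, adjusted p = 0.00219). In DKO 1 of 9 rose and 1 fell against ff;ff, beside 7.87% and 8.24% of all genes. Against Rab30L-/- 0 of 8 rose and 2 fell, beside 14.9% and 15.8% of all genes. No gene of these lists passed in Rab30L-/- against ff;ff, where 64 genes passed in all, or in Rab30KO against Rab30 Ctrl, where 3 did.

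**Figure D5:**
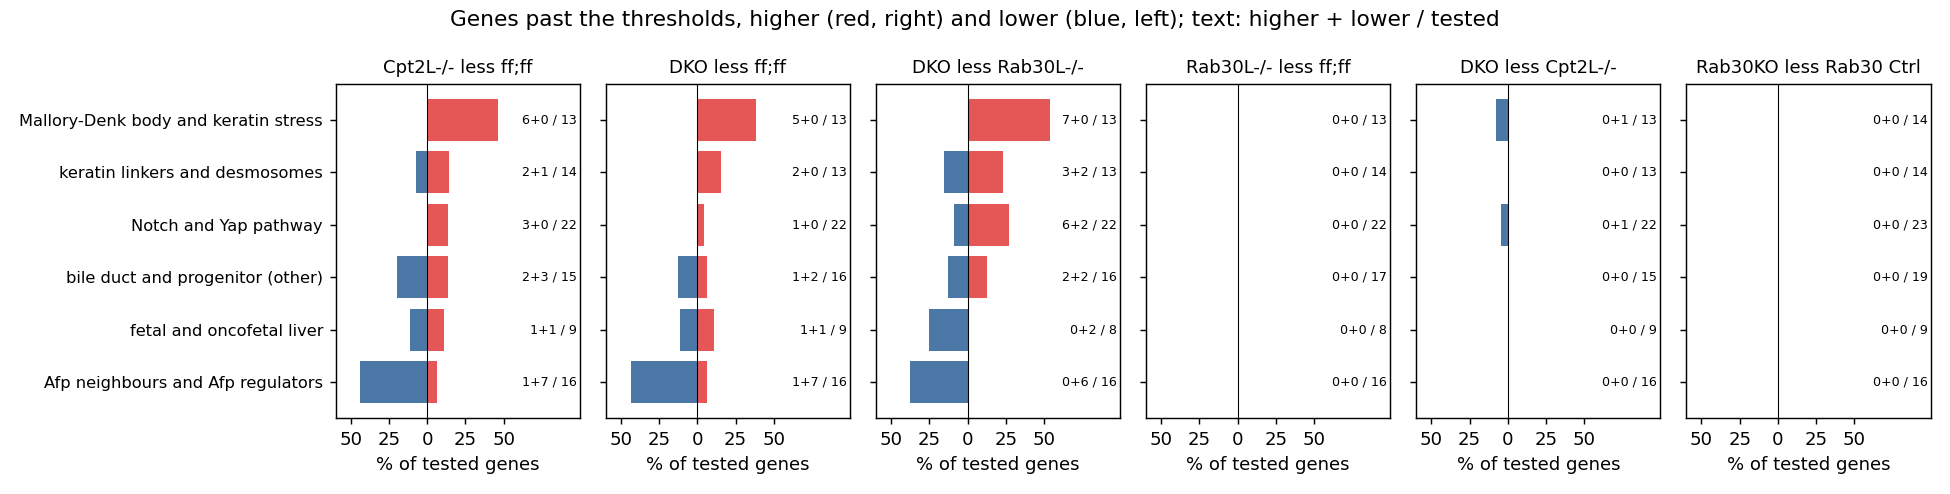
Share of the tested genes of 6 lists (rows) that passed the thresholds in each comparison between groups (panels), in percent, without genes that passed the filter only through the group where they are high, higher to the right in red and lower to the left in blue, with the counts printed beside the bars. The list for Mallory-Denk bodies has 6, 5 and 7 higher genes and no lower one in the first 3 panels, and both Rab30 panels are empty.

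The genes whose level over the 24 libraries was most like that of a member were sought for the 8 members averaging at least 1 CPM, among 14584 genes. Krt18 was most like the transcription factor Mafk (Pearson's r = 0.95), the lipid droplet coat protein Plin3 (0.93) and the myosin Myh10 (0.93). Krt8 was most like the RNA helicase Ddx56 (0.92), the translation factor Eif6 (0.91) and the prohibitin Phb (0.91). Neither keratin was among the 3 most like the other. Sox9 was most like the cargo lectin Lman2 (0.91), Gm3839 (0.91) and complement component Hc (0.90), Tff3 like the kinase Zap70 (0.86), the antitrypsin gene Serpina1b (0.85) and the carboxylesterase Ces3b (0.84), and Afp like Ntpcr (0.84), Dnph1 (0.82) and Dhx58 (0.81). For Krt23 (Eif5b, Lepr and Acad12), Cd24a (Gm17249, Ggta1 and Cd55) and Epcam (Gm3571 and Slc52a3 among them) r was at most 0.79. The 24 points share their group means and library sizes, so these values are descriptions, and of each 3 genes only 0 to 2 were also among the 3 most alike by rank.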

How the data were processed

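RNA was extracted from flash-frozen liver with TRIzol and purified on columns, and a company made and sequenced the libraries. The submitters' processing notes name HISAT2 and DESeq2 and the builds GRCm38 and mm10. The gene counter, its version and the use of strand are not given in the sources used here. The authors deposited a table of unnormalized gene counts and 1 of FPKM values, which equal the count divided by the listed gene length and by 1 constant per library. They also deposited a table of normalized counts and 5 tables of their own comparisons (fold changes and p-values), which were not used. Of the listed genes, 98.2% have the coordinates of GENCODE M21.

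All tests started from the raw counts. For each comparison genes were kept by filterByExpr, libraries were scaled by TMM, and the libraries of the groups compared (8, or 16 for the interaction) were fitted with edgeR's quasi-likelihood test (edgeR 4.0.16, R 4.3.3). The p-values were adjusted by the Benjamini-Hochberg method over every gene that entered the fit. Genes that entered a comparison only through their higher group (left out of every other comparison of the lower group) are given no test from this fit. They stay out of the members' and lists' counts, except where alternative fits and left-out libraries are counted. This choice, made after seeing the data, leaves out Krt19, Krt7 and some list genes. Calls needed an adjusted value below 0.05 and a change of 1.2-fold or more. CPM values use TMM over all 24 libraries. Likeness between genes was computed on log2 CPM with a prior count of 2. DESeq2 1.42.0 was an alternative. The scripts were tested on simulated data, and tables were made with Python 3.11.15.

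The 10 genes, the gene lists and the motifs were chosen with earlier results of these data known. All members are described. From each list at most the 4 called genes with the largest change are named per comparison, and the 3 genes most like each member. Some of these genes are not reported here. Trp53, Krt79, Jup, the counts of Krt10 and the leave-one-out cases were singled out after their values were seen. All 36 pairs of libraries of a group differed by more than counting noise (chi-square per degree of freedom of 12.2 or more). Livers are taken as separate animals from their labels, and no batch is labelled. The floor of 3 counts covers counting error only.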

Additional observations from a re-analysis of the deposited data

Results flagged for a closer look

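In a test of the highest or lowest library in each group of 4 (Dixon's test at the 95% level), 4 of the 60 combinations of gene and group had a library far from the other three. Chance flags about 1 in 20. In ff;ff, replicate 3 held 193.1 CPM of Krt18, against 99.6 to 106 CPM in the other libraries, and 19.59 CPM of Krt23, against 1.83 to 4.32 CPM. Krt23 stood at 38.58 CPM in Rab30L-/- replicate 3, against 1.16 to 7.02 CPM in the other Rab30L-/- libraries. Epcam stood at 1.295 CPM in Cpt2L-/- replicate 3, against 0.881 to 0.937 CPM in the others, a difference that rests on 20 counts against 14 to 15.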

How the results depend on the processing

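Replicate numbers were given in accession order and pair nothing: No paired analysis was possible because the labels of the groups compared share no replicate numbers. The calls of Krt8, Krt18, Sox9 and Tff3 in Cpt2L-/- against ff;ff were kept under DESeq2, DESeq2 size factors in edgeR, no filter on low counts, a fit over all 24 libraries and the loss of any 1 library. Krt19 and Krt7 are not left out of the counts of members given here. The number of members called in DKO against ff;ff was 5 without a filter, Krt19 included, and from 1 to 5 with 1 library left out. It was 1 without a filter in DKO against Cpt2L-/-, and for the interaction it was 2 with DESeq2 and from 0 to 1 with 1 library left out. The number of all genes called was 309 with DESeq2, 240 without a filter and from 23 to 93 with 1 library left out in Rab30L-/- against ff;ff. It was 931, 705 and from 57 to 445 in DKO against Cpt2L-/-, with 114 in the fit over 24 libraries, and 12, 6 and from 0 to 4 in Rab30KO against Rab30 Ctrl, with 9 in that fit. For the interaction it was 1062 with DESeq2, 374 in the fit over 24 libraries and from 300 to 679 with 1 library left out. The causes were not tested.

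With 1 library left out, the sign of 17 differences that had passed no test changed. Their log2 fold changes ran for Cd24a from -0.62 to 0.076 (Cpt2L-/- against ff;ff), -0.10 to 0.51 (DKO against ff;ff), -0.56 to 0.10 (Rab30L-/- against ff;ff) and -0.15 to 0.27 (Rab30KO against Rab30 Ctrl). For Krt23 they ran from -0.54 to 0.32 (DKO against Cpt2L-/-), -0.14 to 2.05 (DKO against Rab30L-/-), -0.97 to 2.15 (Rab30L-/- against ff;ff), -0.86 to 0.26 (Rab30KO against Rab30 Ctrl) and -2.30 to 0.82 (interaction). For Krt7 they ran from -0.74 to 0.048 (DKO against ff;ff, where no test is given), -0.10 to 0.65 (Rab30L-/- against ff;ff) and -0.52 to 0.22 (interaction). For Tff3 they ran from -0.45 to 0.93 (Rab30L-/- against ff;ff) and -0.66 to 1.31 (Rab30KO against Rab30 Ctrl), for Sox9 from -0.26 to 0.18 (Rab30KO against Rab30 Ctrl), for Epcam from -0.43 to 0.065 (DKO against Cpt2L-/-) and for Krt8 from -0.13 to 0.01 (Rab30L-/- against ff;ff). Krt7, Krt19, Epcam and Afp had at most 56 counts in a library, and Tff3 had at most 19 in a Cpt2L-/- library.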
